A study of Mus musculus with 6 samples.

Results

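Inflammasome, pyroptosis and necroptosis genes were followed across cultured mouse heart cells on 6 Affymetrix arrays. The list held 10 genes, and 9 of them had a probe set under their symbol among the 19505 genes of the array: Nlrp3, Aim2, Pycard, Casp1, Casp4, Gsdmd, Casp8, Ripk3 and Mlkl. Each of the 9 had 1 probe set. Ripk1 was not analysed here.

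Primary fibroblasts of the heart (CF), which make its matrix, and cardiomyocytes (CM), which contract, were cultured for 48 h under 3 conditions. These were phosphate-buffered saline (PBS, called sham in the sample titles), the secretome of Ccrl2+ macrophages and the secretome of Ccrl2- macrophages. The macrophages came from 6 pooled wild-type hearts taken 1 week after the aorta had been surgically narrowed (TAC) to overload the heart with pressure, so that each secretome stands for 1 pool of animals. All samples are labelled as heart of C57BL/6N mice of 15 to 16 weeks, and the labels do not say whether this age is that of the macrophage donors or of the cultured cells. The source labels name the secretome, while the treatment protocol speaks of keeping the cells together with sorted macrophages. The source labels were followed. With 1 array in each of the 6 groups, differences have no replicate check and no test was made. Precision is limited by this number of arrays.

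Inflammasomes are protein platforms of the cytosol. Sensors such as Nlrp3 and the DNA-binding protein Aim2 bind the adaptor Pycard (ASC), which gathers caspase-1. Caspase-1 matures the cytokines interleukin-1 beta and interleukin-18 and cleaves gasdermin D (Gsdmd), whose fragment makes pores in the plasma membrane in the cell death called pyroptosis. Mouse Casp4, also known as caspase-11, binds bacterial lipopolysaccharide in the cytosol and cleaves gasdermin D without a sensor of the Nlrp3 type. In necroptosis the kinase Ripk3, joined by Ripk1, phosphorylates the pseudokinase Mlkl, which then breaks the membrane, and Casp8 holds this path back. Assembly, cleavage and phosphorylation set the activity of these proteins, and arrays of RNA measure none of them.

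Levels are given as log2 values of a probe set, where 1 unit is 2-fold. They serve to compare arrays for a given gene and not genes with each other. A gene entered a comparison when its higher value reached 6.55, the median over all named probe sets and arrays and here called the floor, and it was counted when the arrays differed by at least 2-fold. Each array's median over named probe sets was between 6.5 and 6.59. The 95th percentile of the 5222 negative control probe sets lay between 10.67 and 10.74 in CF and between 10.2 and 10.25 in CM. Only Casp8 lay above it on all 6 arrays. Casp4 and Mlkl lay above it on 5 arrays and Ripk3 on 4, while Nlrp3, Pycard, Casp1, Gsdmd and Aim2 lay below it on every array. The fibroblast markers were far higher in CF and the cardiomyocyte markers far higher in CM: 7 of 7 and 9 of 9 markers differed by at least 2-fold in the labelled direction in PBS. The CM culture was not pure by such markers: 6 endothelial markers had a median of 13.3 in CM in PBS. The 7 fibroblast markers had a median of 10.13 there, with the highest at 15.34. The 4 smooth muscle markers had a median of 11.27 in CM and 12.84 in CF in PBS. In CF in PBS 9 cardiomyocyte markers had a median of 9.51, below the controls' 95th percentile. Of these markers only Tnnt2 (16.12) and Nppa (16.1) lay above that percentile. The 21 macrophage markers had a median of 10.25 in CF and 10.69 in CM in PBS, and more on them is given below. In such bulk cultures a difference in the number of cells of a type and a difference in RNA per cell cannot be told apart.

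The regulatory sequence before the start site is shown for Casp4, Mlkl and Nlrp3, the 3 genes that stood 2-fold or more above PBS in CF with the Ccrl2- secretome, and for Casp1, the gene next to Casp4 on the chromosome, which was not. Each is the stretch of 250 bases that ends just before the start site, 5′ to 3′ on the strand of the gene, from RefSeq (GRCm38.p6). For Nlrp3 and Casp4, which have more than 1 start site in the table, the more upstream one is shown. Capitals mark matches to the NF-kB consensus, a 10-base motif recognised by a factor of inflammatory signalling, on either strand.
Casp4 (chr9:5308599-5308848, plus strand): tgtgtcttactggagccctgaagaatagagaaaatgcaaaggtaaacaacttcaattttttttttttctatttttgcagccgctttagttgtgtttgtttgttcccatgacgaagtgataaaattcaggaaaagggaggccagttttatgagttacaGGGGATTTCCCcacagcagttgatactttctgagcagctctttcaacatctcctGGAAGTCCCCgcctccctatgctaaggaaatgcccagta
Casp1 (chr9:5298267-5298516, plus strand): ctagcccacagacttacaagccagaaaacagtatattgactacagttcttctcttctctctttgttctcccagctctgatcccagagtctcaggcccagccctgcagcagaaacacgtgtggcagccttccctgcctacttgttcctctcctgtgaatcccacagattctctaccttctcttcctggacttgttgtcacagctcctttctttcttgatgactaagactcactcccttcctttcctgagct
Mlkl (chr8:111338206-111338455, minus strand): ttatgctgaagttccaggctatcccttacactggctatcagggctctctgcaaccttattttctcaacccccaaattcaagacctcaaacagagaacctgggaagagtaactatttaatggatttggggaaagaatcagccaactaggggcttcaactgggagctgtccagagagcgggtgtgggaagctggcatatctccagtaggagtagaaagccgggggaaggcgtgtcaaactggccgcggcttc
Nlrp3 (chr11:59541319-59541568, plus strand): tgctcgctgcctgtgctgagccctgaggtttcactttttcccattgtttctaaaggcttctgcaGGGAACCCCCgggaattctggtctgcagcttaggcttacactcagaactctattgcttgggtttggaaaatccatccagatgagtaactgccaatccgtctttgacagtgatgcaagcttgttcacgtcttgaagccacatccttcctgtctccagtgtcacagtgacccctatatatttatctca
The Casp4 stretch held matches at 2 places, which begin 93 and 39 bases before the start site. The former, GGGGATTTCC, is overlapped by a further match that begins 1 base later, and the latter is GGAAGTCCCC. The upstream Nlrp3 stretch held 1 match, GGGAACCCCC, which begins 186 bases before the start site. Of 32851 such stretches in the RefSeq table, 7.25% held at least 1 match and 1.03% at least 2, overlapping ones included. The stretches of Casp1, Mlkl, Casp8, Aim2, Pycard and Ripk3 and that of the second Nlrp3 start site held none. The core of the interferon-stimulated response element (GAAANNGAA, in 7.13% of all stretches), the GAS motif (TTCNNNGAA, 7.02%) and the TATA box (TATAAA, 12.4%) were searched on both strands as well and were in none of the 10 stretches of 8 members. Gsdmd was not in the table. These matches describe letters in a window and show neither binding nor use by a factor.

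The comparisons ask how the products of the macrophage populations act on the cells of the heart. In fibroblasts with the Ccrl2- secretome, the caspase gene Casp4, the necroptosis effector Mlkl and the sensor Nlrp3 were higher than in PBS by 3.16, 2.8 and 2.58 on the log2 scale, that is 8.94-, 6.96- and 5.98-fold. The PBS value of Nlrp3 lay below the floor, so its fold is uncertain and only a bound of 1.55 on the log2 scale is read. The pore-forming gene Gsdmd was 1.99-fold higher, just under the 2-fold limit. Casp1, Pycard and Casp8 differed little. With the Ccrl2+ secretome none of the 9 genes reached 2-fold in fibroblasts, and in cardiomyocytes the one such difference was a lower Casp1 with the Ccrl2+ secretome. The small plots of levels on each array show this pattern.

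**Figure D1:**
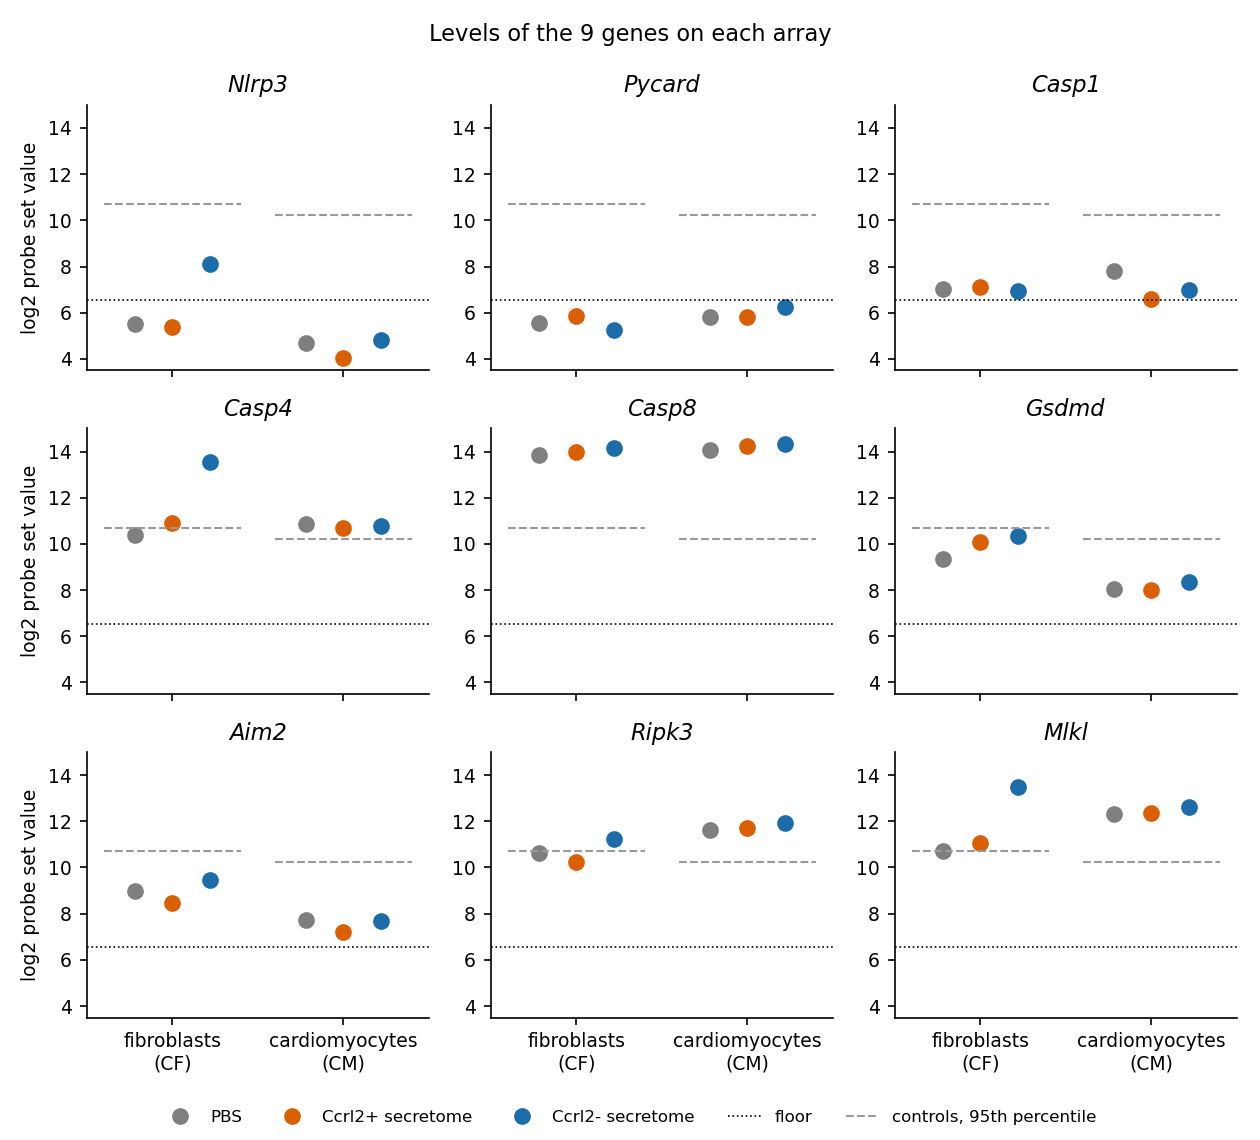
Log2 probe set value of each of the 9 genes (y axis) on the 3 CF and the 3 CM arrays (x axis), 1 point per array, coloured by condition; the dotted line is the floor of 6.55 and the dashed lines are the 95th percentile of the negative controls, averaged over the 3 arrays of a culture. Casp4, Mlkl and Nlrp3 stand out on the CF array with the Ccrl2- secretome, at 13.54, 13.5 and 8.1, while the CM arrays lie close together for every gene but Casp1 and the dim Nlrp3.

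Of the sensors, Nlrp3 lay at 5.52 in CF with PBS, 5.39 with the Ccrl2+ secretome and 8.1 with the Ccrl2- secretome, and at 4.67, 4.03 and 4.81 in CM in the same order. The CF array with the Ccrl2- secretome was thus the only one of 6 with Nlrp3 above the floor, and Nlrp3 entered the comparisons through that array alone. Because the PBS value lay below the floor, the difference of 2.58 is also given as a bound: at least 1.55 above the floor. The value of 8.1 was higher than 73.2% of the negative controls on its array, whereas those of Casp4 and Mlkl there were higher than 98.8%.

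Aim2 lay at 9.0 in CF with PBS, 8.48 with the Ccrl2+ secretome and 9.46 with the Ccrl2- secretome. The CF secretome arrays therefore lay on either side of PBS, by -0.52 and 0.46, and differed from each other by -0.98, or 1.97-fold. In CM it lay at 7.74, 7.22 and 7.68, lower than in CF under each of the 3 conditions.

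The adaptor Pycard was below the floor on all 6 arrays, between 5.24 and 6.25, and no difference is read from it. Casp1, its partner, lay at 7.02, 7.12 and 6.94 in CF with PBS, Ccrl2+ and Ccrl2- secretome, a range of 0.18. In CM it lay at 7.8, 6.6 and 7.0. The PBS array was the highest there, and the value with the Ccrl2+ secretome stood next to the floor.

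Casp4 gave the largest difference among the 9 genes from PBS. It lay at 10.38 in CF with PBS, 10.91 with the Ccrl2+ secretome and 13.54 with the Ccrl2- secretome, and at 10.88, 10.71 and 10.76 in CM. The 5 other arrays fell within 0.53 of each other, and the CF array with the Ccrl2- secretome stood above them all. Among 10057 genes its difference of 3.16 from PBS had rank 157 from the highest.

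Gsdmd, the shared substrate of Casp1 and Casp4, lay at 9.34, 10.07 and 10.33 in CF with PBS, Ccrl2+ and Ccrl2- secretome. Both secretome arrays were above PBS, by 0.73 and 0.99, and they differed from each other by 0.26. In CM it lay at 8.06, 7.99 and 8.34, below every CF value.

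Of the necroptosis genes, Mlkl lay at 10.7 in CF with PBS, 11.07 with the Ccrl2+ secretome and 13.5 with the Ccrl2- secretome. In CM it lay at 12.32, 12.35 and 12.61, a range of 0.29. With PBS the CF value was 1.62 below the CM value, and with the Ccrl2- secretome it was 0.89 above it, so the order of the cultures turned. The kinase gene Ripk3 lay at 10.64, 10.22 and 11.25 in CF and at 11.63, 11.73 and 11.93 in CM. Its CF secretome arrays stood on either side of PBS, by -0.42 and 0.61. Casp8 varied least of the genes above the control percentile, from 13.87 to 14.31 over all 6 arrays.

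Of the 8 members that entered, 3 were higher in CF with the Ccrl2- secretome than in PBS by 2-fold or more and 0 lower. Over all 10057 genes that entered, 6.18% were higher by as much and 4.83% lower. The median difference of the 8 members past the floor was 0.8, against -0.09 over all genes past the floor. The 8 include Nlrp3, which passed only through the array where it was high. With the Ccrl2+ secretome 0 of the 7 members that entered reached 2-fold in either direction, against 4.87% of 10042 genes higher and 6.13% lower. The median of the 7 was 0.1, against -0.07 over all genes past the floor. In that comparison the median of the 4 poly-A spike-ins, which are added to the RNA before labelling, was 0.61 higher, against -0.31 with the Ccrl2- secretome, and the part of these shifts in the differences was not tested.

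Between the fibroblast secretome arrays, 4 of the 8 members that entered were at least 2-fold lower with Ccrl2+ than with Ccrl2- and 0 higher. Of 10144 genes 10.1% were lower by as much and 8.55% higher. The 4 were Nlrp3 (5.39 against 8.1), Casp4 (10.91 against 13.54), Mlkl (11.07 against 13.5) and Ripk3 (10.22 against 11.25). Nlrp3 entered only through the Ccrl2- array. Ripk3, at -1.03, and Aim2, at -0.98, lay on either side of the limit, and Ripk3 was -0.99 with quantile normalization on top. This comparison is made of the same arrays as the previous ones and adds no separate evidence. Other features differed between these arrays in the opposite direction. Of the cardiomyocyte markers that entered, 8 of 8 reached 2-fold and were higher with Ccrl2+ than with Ccrl2-, with a median of 1.46, and 3 of 8 were higher with Ccrl2+ than in PBS, with a median of 0.96. The median of the poly-A spike-ins was 0.89 higher with Ccrl2+ and that of the hybridization spike-ins 0.33 higher. The part of these shifts in the members' differences was not tested.

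In cardiomyocytes 0 of the 7 members that entered differed by at least 2-fold between the Ccrl2- secretome and PBS. Of 10054 genes 0.746% were higher by as much and 0.786% lower. Between the secretomes the count was also 0, against 0.130% of 9995 genes higher and 0.180% lower. With the Ccrl2+ secretome 0.629% of 10009 genes were at least 2-fold lower than with PBS and 0.210% higher. Of the 7 members that entered 1 was lower, Casp1 (6.6 against 7.8, a difference of -1.2). Its rank was 36 from the lowest. With the Ccrl2- secretome Casp1 was 0.8 below PBS. The plot of differences sets both cultures side by side.

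**Figure D2:**
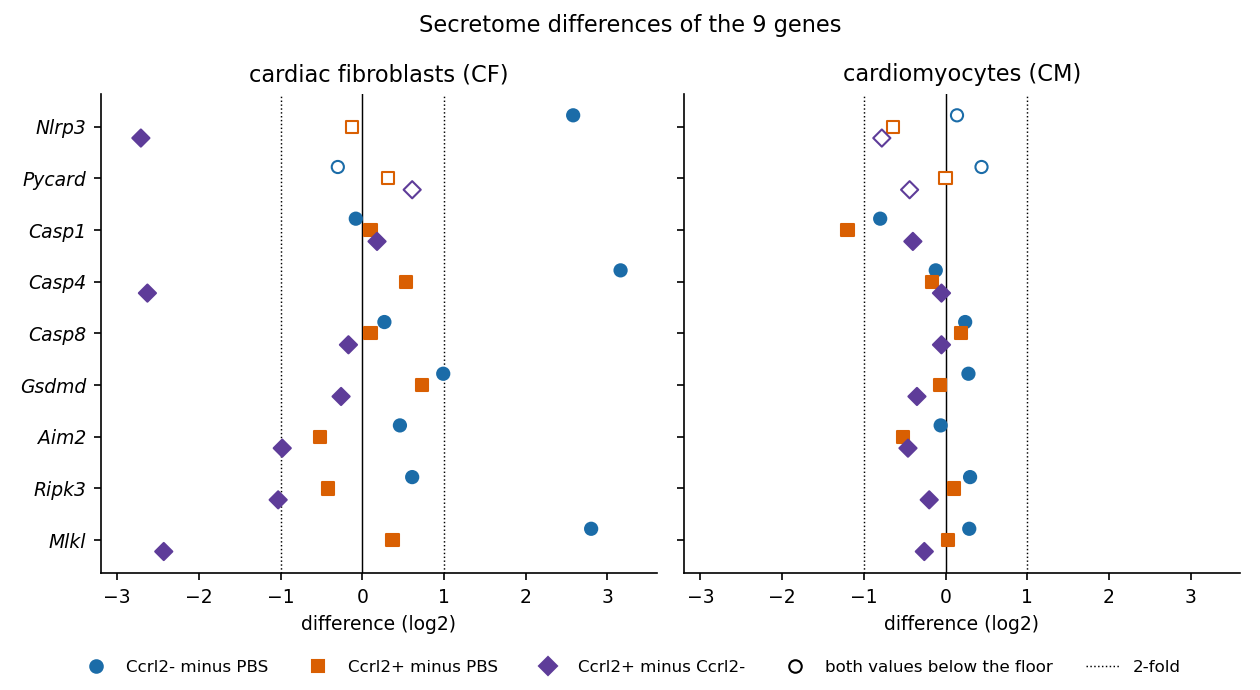
Log2 difference (x axis) of each of the 9 genes (y axis) in the 3 secretome comparisons of CF (left) and of CM (right); open symbols mark pairs with both values below the floor and dotted lines mark 2-fold. In CF, Nlrp3, Casp4 and Mlkl lie beyond 2-fold with the Ccrl2- secretome, and in CM only Casp1 with the Ccrl2+ secretome, at -1.2.

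The width of the distributions differed between the cultures. The 3 counted members in CF lay within a long tail of higher genes, with ranks of 157 (Casp4), 186 (Mlkl) and 214 (Nlrp3) from the highest, and Gsdmd had rank 623. In CM no such tail was seen. Of the negative controls past the floor, 13.1% differed by 2-fold or more from PBS in CF with the Ccrl2- secretome and 19.7% with the Ccrl2+ secretome, and 19% did so between those secretomes. In CM the share was 17.7% with the Ccrl2- and 12.9% with the Ccrl2+ secretome against PBS, and 15.8% between the secretomes. The shares in CM are above those of all genes there, and Casp1, the only member counted in CM, lay below the controls' 95th percentile. In CF the controls' shares were not below those of all genes either. Of controls that reached the higher 95th percentile of the 2 arrays, 16.9% differed by 2-fold in CF with the Ccrl2- secretome against PBS. Of genes that bright, 12.1% did. With the Ccrl2+ secretome against PBS the shares were 23.6% and 9.8%, and between the secretomes 25% and 19.2%.

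**Figure D3:**
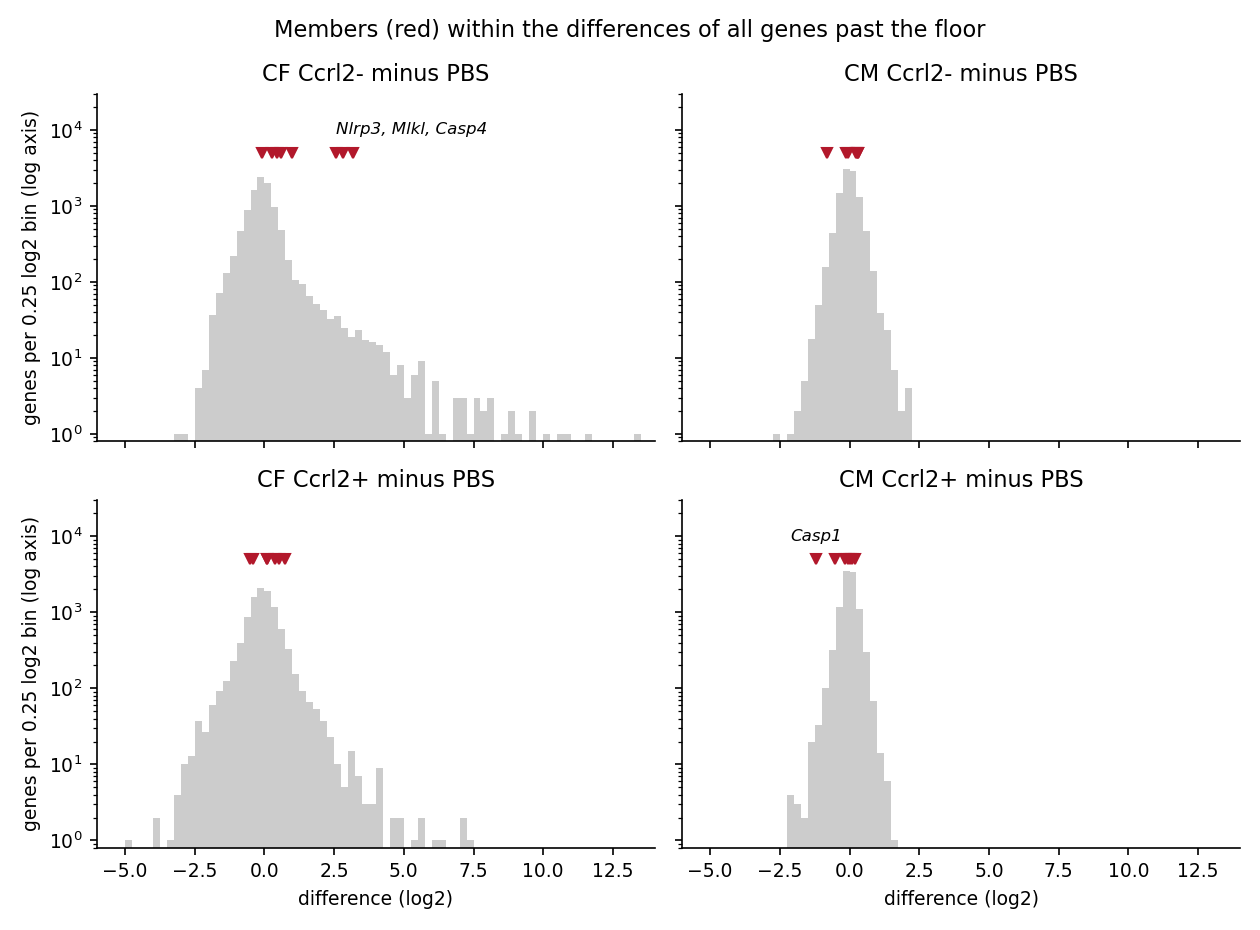
Number of genes past the floor (y axis, log scale) per bin of the log2 difference from PBS (x axis) in 4 comparisons; red triangles are the members past the floor, with names where they reached 2-fold. Nlrp3, Mlkl and Casp4 lie at 2.58 to 3.16 with the Ccrl2- secretome in CF, and Casp1 at -1.2 with the Ccrl2+ secretome in CM.

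Between the cultures in PBS, Gsdmd (9.34 against 8.06) and Aim2 (9.0 against 7.74) were at least 2-fold higher in CF than in CM, and Mlkl (10.7 against 12.32) was lower. Of 10394 genes 13.9% were higher by as much and 16.9% lower, so such differences were common. Of the 7 members that entered 2 were higher and 1 lower, and no excess is read from so few. The negative controls past the floor were themselves 0.55 higher in CF by their median, and 30.6% of them differed by 2-fold or more. Gsdmd and Aim2, whose differences were 1.28 and 1.26, lay below the 95th percentile of the controls on every array and would be under 2-fold relative to that shift, whose part in them was not tested. Ripk3 was 0.99 lower in CF. Gsdmd was higher in CF by 1.28 with PBS, 2.08 with the Ccrl2+ secretome and 1.99 with the Ccrl2- secretome.

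The other genes of these pathways were taken from 10 lists with 81 names, of which 74 were on the array. In CF with the Ccrl2- secretome, 17 of the 52 that entered were higher than in PBS by 2-fold or more and 0 lower, against 6.18% and 4.83% of all genes, with a median of 0.33 against -0.09. Of the 17, 6 were below the floor in PBS (Il1b, Gbp4, Gbp9, Tnf, Zbp1 and Irf7, between 4.33 and 6.22) and entered only through the array where they were high. Inflammasome sensors other than Nlrp3 and Aim2 were dim: 1 of 10, Naip2, reached the floor there (6.74 against 7.0), while Nlrc4, Nlrp1b and Mefv stayed between 3.35 and 4.49 on every array. The Nlrp3 partners Nek7, a kinase, Txnip, P2rx7, an ATP receptor, and Panx1, a channel, gave 0 of 4.

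The cytokine substrates of caspase-1 parted. Il1b lay at 12.72 with the Ccrl2- secretome in CF and between 4.54 and 4.78 on the 5 other arrays, at least 6.17 above the floor. Il18 lay at 7.25 on that array against 8.1 in PBS. Of the genes that break the membrane besides Gsdmd, Ninj1, which ruptures dying cells, was at 14.44 against 13.07, and the 8 other gasdermin genes were below the floor on all 6 arrays, Gsdme between 4.07 and 5.5.

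All 5 guanylate-binding protein genes on the array, which encode interferon-induced GTPases that coat bacteria and promote caspase-11 activation, were at least 2-fold higher, with differences of 3.86 to 7.66. Of all genes 6.18% were higher by as much. Gbp2 lay at 15.1 against 7.44 and Gbp4 at 12.57 against 5.8. Gbp4 and Gbp9 were below the floor in PBS and entered only through the array where they were high. Of the death receptors, ligands and necroptosis triggers, 5 of 9 that entered were higher by 2-fold or more, against the same 6.18%. Tnf, the classical trigger, lay at 12.3 against 5.04, and Zbp1, a nucleic acid sensor that binds Ripk3, at 7.91 against 4.33. Tnf and Zbp1, too, were below the floor in PBS and entered only through that array. The receptor gene Fas (11.0 against 8.46) and the RNA receptor gene Tlr3 (12.2 against 9.63) were higher too, while Tnfrsf1a, the Tnf receptor, lay at 13.43 against 13.3.

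Of 16 genes that regulate the complexes formed after Tnf receptor signalling, 3 were at least 2-fold higher: Tnfaip3, which encodes the ubiquitin-editing protein A20 (14.45 against 8.46), Birc3 (15.28 against 11.19) and Birc2 (11.01 against 8.35), which encode the ubiquitin ligases that keep Ripk1 from forming a death complex. Fadd lay at 9.38 against 9.3 and Cflar at 12.52 against 12.14. Of all genes 6.18% were higher by 2-fold or more. The interferon regulatory factor genes Irf7 (9.96 against 5.51) and Irf1 (11.05 against 7.85) were higher, 2 of 5 of their list. Irf7 was below the floor in PBS and entered only through the array where it was high. Apoptotic and other caspases (0 of 3) and the membrane repair genes of the ESCRT-III complex (0 of 6) had no such gene, with Chmp4b nearest at 10.63 against 9.88.

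In CF with the Ccrl2+ secretome 4 of 47 pathway genes that entered were higher by 2-fold or more and 1 lower, against 4.87% and 6.13% of all genes. With so few genes counted, the values that follow are a description only. Birc2 lay at 10.54 against 8.35, Irf2 at 12.19 against 10.57, Birc3 at 12.71 against 11.19 and Ticam1, an adaptor of Tlr3 and Tlr4, at 8.91 against 7.54. Tnfrsf10b, a death receptor gene, was the lower one (9.58 against 10.85). In CM 0 of 51 reached 2-fold with the Ccrl2- secretome, against 0.746% of all genes higher and 0.786% lower. With the Ccrl2+ secretome 2 of 52 were lower and 0 higher, against 0.629% and 0.210% of all genes. These were Gbp3 (7.09 against 8.3) and Il18 (6.67 against 7.71). Both genes lay below the control percentile on both arrays. Of the negative controls past the floor, 12.9% differed by 2-fold or more in that comparison.

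**Figure D4:**
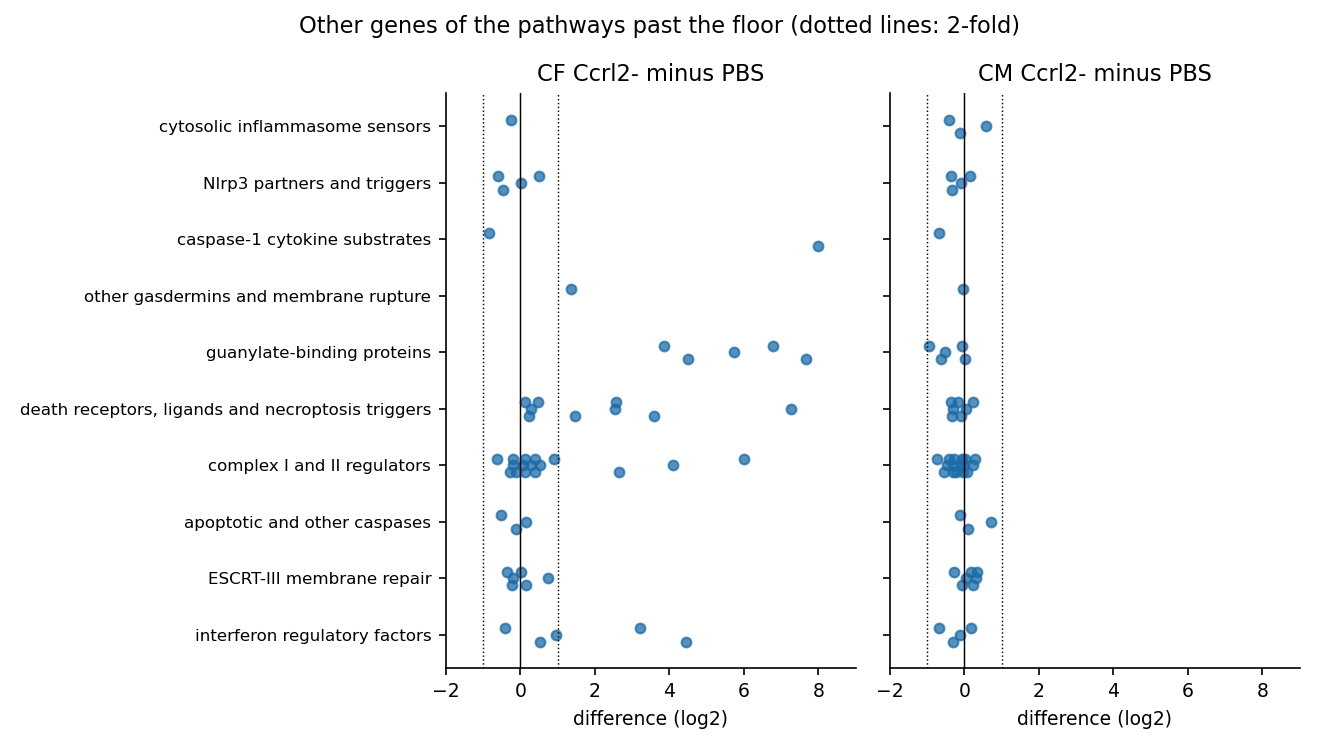
Log2 difference (x axis) between the Ccrl2- secretome and PBS for the genes of each pathway list (y axis) past the floor, 1 point per gene, in CF (left) and CM (right), with dotted lines at 2-fold. All 5 guanylate-binding protein genes in CF lie between 3.86 and 7.66, and in CM no gene of these lists lies beyond 2-fold.

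Several of the 9 genes are known in macrophages, so macrophage markers were read on the same arrays. Of 21 markers, the sum of linear levels was, as log2, 15.43 in CF with PBS, 15.87 with the Ccrl2+ and 16.01 with the Ccrl2- secretome. Cybb, a subunit of the phagocyte oxidase, lay at 14.77 with the Ccrl2- secretome against 11.13 in PBS. It was singled out after its value was seen. Without Cybb the sum was 15.36 with PBS, 15.82 with the Ccrl2+ and 15.21 with the Ccrl2- secretome. Leaving out a marker that was high on the Ccrl2- array had to lower the sum there, so no order of the arrays is read from it. A sum over probe sets is weighted towards the brightest of them. In CF with the Ccrl2- secretome 5 of 20 that entered were higher than in PBS by 2-fold or more and 8 lower, with a median of -0.44. Of all genes 6.18% were higher by as much and 4.83% lower. Ptprc, the common leukocyte antigen, lay at 9.17 against 9.06, Adgre1 at 10.45 against 9.24, Lyz2 at 13.84 against 12.52 and Csf1r at 10.85 against 11.95. The part of macrophage RNA in the higher Casp4, Mlkl and Nlrp3 was not tested. All 7 neutrophil markers and all 6 lymphocyte markers were below the floor on every array.

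In CM the sum of macrophage markers was 15.71 with PBS, 14.91 with the Ccrl2+ and 15.25 with the Ccrl2- secretome. With the Ccrl2+ secretome 8 of 18 markers were at least 2-fold lower than in PBS and 0 higher, against 0.629% and 0.210% of all genes. Their median was -0.86, and all 18 were below their PBS value. Csf1r lay at 9.65 against 10.67, Adgre1 at 8.25 against 8.65, Ptprc at 8.29 against 8.86 and Lyz2 at 12.27 against 12.88. Casp1 (-1.2), Il18 (-1.04) and Aim2 (-0.52) were lower on the same array. Casp4 (-0.17) and Gsdmd (-0.07) were little changed, and Casp8 (0.19), Ripk3 (0.1) and Mlkl (0.03) were not lower. The part of macrophage RNA in these differences was not tested. Fibroblast markers moved as well in CM, with a median of 0.67 with the Ccrl2+ and 1.17 with the Ccrl2- secretome.

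**Figure D5:**
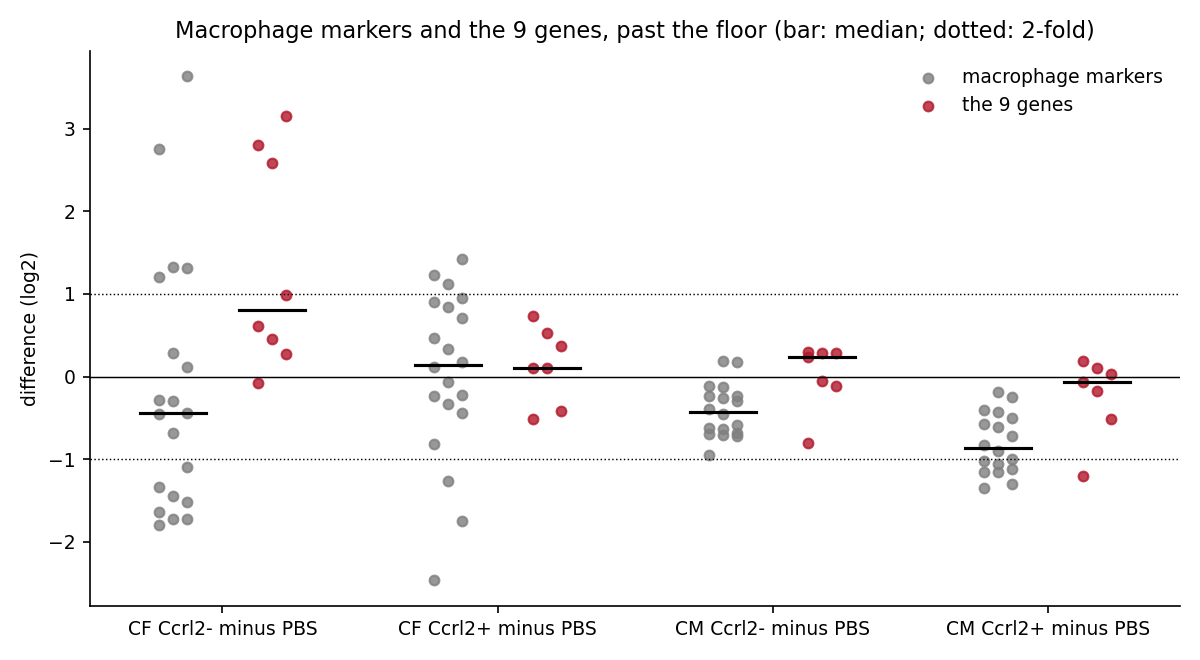
Log2 difference from PBS (y axis) of the macrophage markers (grey) and of the 9 genes (red) past the floor in 4 comparisons (x axis), with black bars at the medians and dotted lines at 2-fold. In CM with the Ccrl2+ secretome all 18 markers lie below 0, with a median of -0.86, and Casp1 lies at -1.2.

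Genes with the most similar profile were sought over the 6 arrays among 5697 genes with a range of at least 1. For Nlrp3, which was above the floor on 1 array only, no gene is named. Closest to Gsdmd by Pearson r were Dtx4 (0.999) and both chains of the interleukin-1 receptor, Il1r1 (0.996) and Il1rap (0.996). Closest to Mlkl were the kinase gene Mapkapk2 (0.991), the transporter gene Slco3a1 (0.99) and the Tnf-induced gene Tnfaip2 (0.987). Il1r1 lay at 13.74, 14.59 and 14.85 in CF with PBS, Ccrl2+ and Ccrl2- secretome and at 12.05, 12.29 and 12.53 in CM, and so had its 3 highest values in CF, as Gsdmd did. Over 6 points and a search among so many genes, high values of r are easily reached. They are a description of these 6 arrays.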

How the data were processed

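Biotin-labelled total RNA was run on Affymetrix arrays, per the labels' protocols. The authors deposited log2 summaries per probe set, for which the submitters' processing notes name Affymetrix Expression Console. Algorithm, software version and genome build: not given in the sources used here. The log2 scale was read from the values. The sorted values of the arrays lay within 0.3 of each other, so the arrays had been brought to nearly one distribution before deposit, which hides a shift shared by most genes.

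Of 28846 probe sets, 19572 had a symbol in the platform annotation. The probe set with the highest mean was used per symbol, giving 19505 genes, and the 9 members carried the same Entrez identifiers in the RefSeq table (GRCm38.p6). Differences were taken between log2 values of 2 arrays, and genes were counted at 2-fold when the higher value reached the floor of 6.55. No p-value was computed. The counting code was tested on simulated data with the spread between the CM secretome arrays, where few genes differed by 2-fold. Changes were planted only in genes well above the floor, so the CF counts were not tested by it. Named genes were the members, up to 4 of each pathway list with the largest difference, Il1b, Il18, the macrophage markers Ptprc, Adgre1, Csf1r and Lyz2, and the 3 genes most like each of Gsdmd and Mlkl. Those most like Nlrp3, which the rule also asked for, were left out because 5 of its 6 values lie below the floor. Further list genes were named as examples after their values were seen. Members, lists and rules were chosen with earlier results of these data known. Alternatives were 1.5- and 3-fold, other floors, quantile normalization and the mean of probe sets. The work used Python 3.11.15 with numpy 2.4.6, pandas 2.3.3, scipy 1.17.1 and, for plots, matplotlib 3.10.9.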

Additional observations from a re-analysis of the deposited data

Results flagged for a closer look

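Casp4 differed in direction between the cultures with the Ccrl2- secretome against PBS: it was 3.16 higher in CF and changed by -0.12 in CM. Casp1 did so with the Ccrl2+ secretome against PBS, at 0.1 in CF and -1.2 in CM. Each culture had 1 array per condition, so the difference between cultures was not tested in either case. The smaller value of each pair, -0.12 and 0.1, lies well inside 2-fold.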

How the results depend on the processing

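The number of the 9 genes at or past the fold was recomputed under 7 alternatives in 7 comparisons, and 39 of 49 counts stayed within 1.5 times the reported one. Part of this was fixed in advance. Each of the 9 had 1 probe set, so the mean of probe sets could not move a count. A count of 0 could not rise at 3-fold or with a higher floor. At 1.5-fold the count was 5 in CF with the Ccrl2- secretome against PBS, 1 in CF with the Ccrl2+ secretome against PBS, 1 in CM with the Ccrl2- secretome against PBS and 5 between the cultures in PBS. At 3-fold it was 0 in CM with the Ccrl2+ secretome against PBS and 1 between the cultures. With a floor at the 75th percentile (10.14) or at the 95th percentile of the negative controls it was again 0 and 1, since Casp1, Gsdmd and Aim2 then drop out, and 2 in CF with the Ccrl2- secretome, without Nlrp3. With quantile normalization Gsdmd reached 1.04 in that comparison and Ripk3 -0.99 between the CF secretome arrays. No counted difference of a member changed sign with quantile normalization, and no member difference moved by more than 0.12. The arrays had nearly one distribution already, so quantile normalization could move the values little. No paired analysis was possible because each group had 1 array. The signal over background limits Nlrp3, Pycard, Casp1, Gsdmd and Aim2, none of which exceeded the controls' 95th percentile on any array.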

Other observations

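Casp12 and Nlrp10, picked after their values were seen, differed between the cultures under each of the 3 conditions. Such differences were common: in PBS 13.9% of all genes were at least 2-fold higher in CF and 16.9% lower. Of the negative controls past the floor, 30.6% differed by as much. Casp12, a caspase gene linked to the endoplasmic reticulum, lay at 11.25, 10.82 and 11.41 in CF with PBS, Ccrl2+ and Ccrl2- secretome and at 8.59, 8.63 and 8.68 in CM, so that every CF value was above every CM value. Nlrp10, an Nlr family gene, lay between 7.22 and 7.89 on the 3 CM arrays and between 4.72 and 5.1, below the floor, on the CF arrays. For Birc2 the order of the cultures depended on the condition: CF was below CM in PBS (8.35 against 9.59) and above it with the Ccrl2+ (10.54 against 9.14) and the Ccrl2- secretome (11.01 against 9.13).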
